A study of Mus musculus with 6 samples.

Results

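The genes described here encode collagen chains, laminins, other proteins of the extracellular matrix, and the enzymes and inhibitors that remodel it, in mouse liver. Members were defined by gene symbol: collagen chains, Timp, Mmp, Lama, Lamb and Lamc genes, and 8 further names (Fn1, Sparc, Dcn, Lum, Bgn, Fbn1, Lox and Eln). This set was drawn up with earlier results of these data known. Of the 12393 genes with a probe set of their own, 75 were members: 36 collagen chains, 10 laminin chains, 18 matrix metalloproteinases, 4 metalloproteinase inhibitors and 7 of the 8 further genes. Fbn1 was not analysed here. Total liver RNA was measured on 6 arrays, 1 mouse each, with 3 mice in each of 2 groups. Mice of both groups were labelled Ppara KO, on a C57 background, and were 1 month old, so the controls, too, were without this nuclear receptor, which drives fatty acid oxidation. TFEB, which is known for switching on lysosomal and autophagy genes, was delivered to one group with an adenoviral vector. The other was not injected and is called control here, with arrays numbered by replicate. No group that received a vector without TFEB was among the samples, so TFEB and the injection of virus cannot be told apart. The labels describe the mice as biological replicates and give neither the vector's promoter, nor the time after injection, nor the sex of the mice.

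The extracellular matrix of the liver is sparse. Fibrillar collagens of type I and type III form the interstitial fibres of portal tracts and vessel walls, type IV collagen and laminins form basement membranes, and type VI collagen forms microfibrils between them. Stellate cells and portal fibroblasts are known as the main makers of fibrillar collagen, whereas hepatocytes secrete plasma fibronectin. Matrix metalloproteinases cut these proteins, and the tissue inhibitors of metalloproteinases (TIMPs) block the cutting enzymes.

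Of the 75 matrix genes, 2 rose and 6 fell in TFEB-injected livers, with "rose" and "fell" used throughout for an adjusted p under 0.05 (limma, adjusted over all genes). That is 10.7% of the matrix genes, beside 17.9% of all genes tested (9.99% higher and 7.92% lower). The order of these shares was reversed under some settings. It was 25.3% against 24.9% at an adjusted p under 0.10 and 42.1% against 36.5% with dim genes dropped, which left 19 members. With array weights, whose fit stopped before converging, it was 50.7% against 47.2%. Under every other setting the share of matrix genes was the lower. The genes that rose were the fibrillar collagen genes Col3a1 and Col1a2. Those that fell were Col5a3, Col6a1, Col13a1, the laminin gene Lama3, the fibronectin gene Fn1 and the protease gene Mmp19. Changes are log2 differences, injected minus not-injected, and ran from -0.59 (Mmp19) to 0.32 (Col3a1). Mmp19 alone moved by over 0.5, or 1.33% of the members beside 4.48% of all genes. The median was -0.04 (all genes, -0.01) and the median size of the change 0.0949 (all genes, 0.0950). The 95% interval of the change lay wholly between -0.5 and 0.5, which is 1.41-fold either way, for 68 of the 75 and for 11080 of all 12393 genes. Values of the 2 groups did not overlap for 28 members (37.3%), 8 higher and 20 lower, beside 37.1% of all genes, with 18.2% higher and 18.9% lower. Without 1 array at a time, the count that rose was 1 or 2 and the count that fell 2 to 8; the 2 came from leaving out control array 2 or injected array 2, and a count of 3 from leaving out control array 1.

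**Figure D1:**
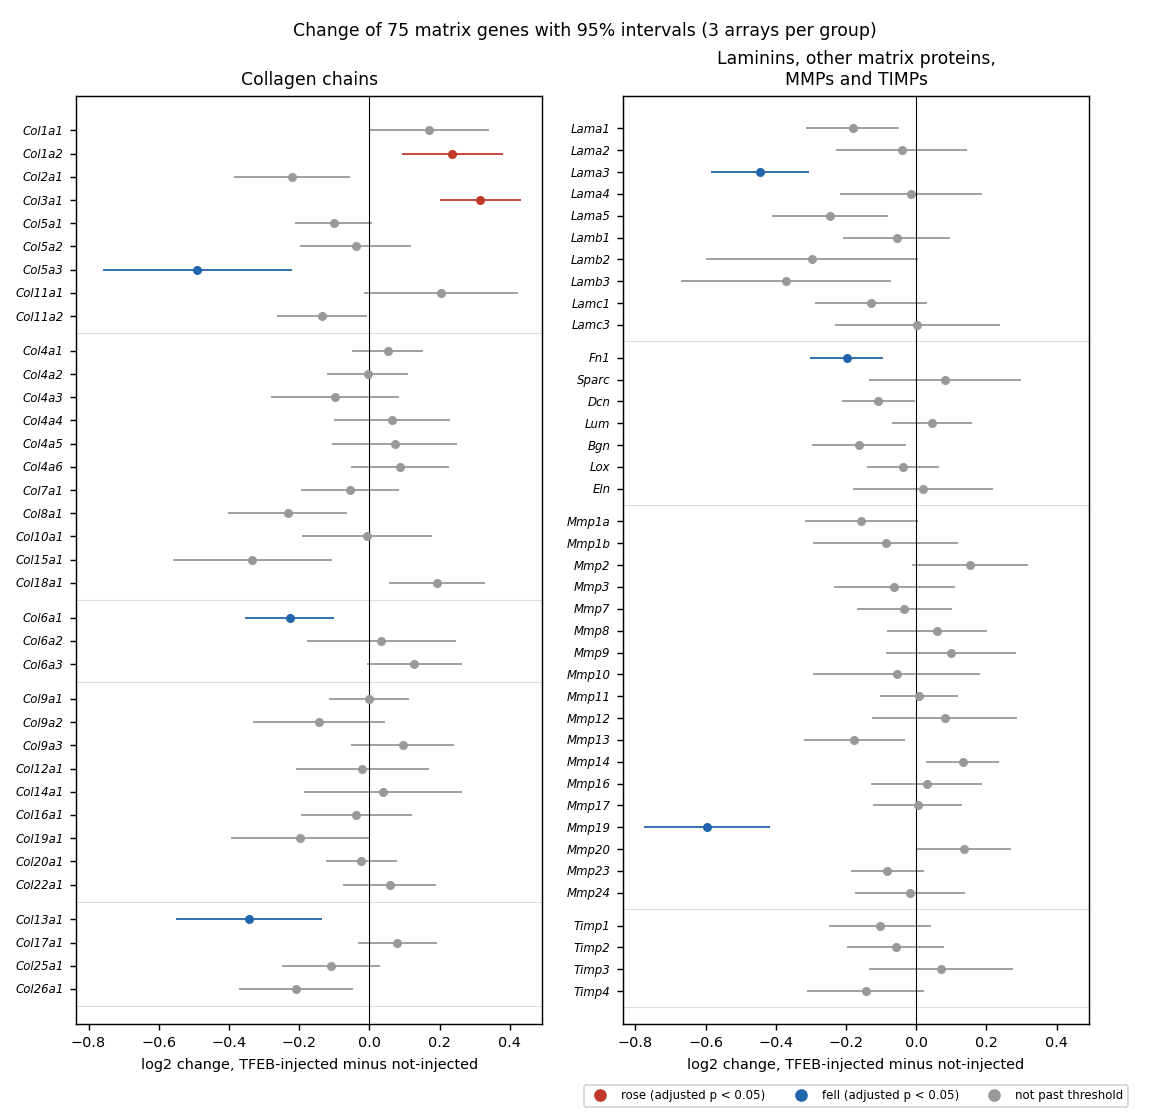
Each point is the log2 change of 1 matrix gene, TFEB-injected minus not-injected (3 arrays per group), with its 95% interval; grey lines part the role groups, and red and blue mark genes past the threshold. Most points lie near 0, Col3a1 and Col1a2 are the 2 red points, and Mmp19 lies farthest left at -0.59.

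Many members gave low signals, and low signals limit what an array can show. The deposited values are log2 levels after RMA (an Affymetrix method that corrects background, sets the arrays to a common distribution and summarises the probes of a probe set), which come with no detection call and never reach 0. A level is compared here only with the same probe set on other arrays. Of the 75 members, 50 had a mean below 6.92, the median of the table; 3 of these passed the threshold (6%), beside 7.18% of all genes below it. Of the 25 brighter members 5 passed (20%), beside 26.1% of all such genes. Several genes had further probe sets: 39 members had more than 1, and for 15 of them at least 1 other probe set had the opposite sign, among these Col1a1, Col18a1, Col14a1 and Timp3 but 0 of the 8 genes that passed.

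Among the 9 fibrillar collagen genes measured, 2 rose and 1 fell (33.3%, beside 17.9% of all genes), with a median change of -0.04. Col3a1, whose product forms the thin reticular fibres of the liver as a trimer of a single chain, was at 9.50, 9.41 and 9.39 in control livers 1 to 3. It was at 9.76, 9.71 and 9.78 in the TFEB-injected livers. Every injected array lay above every control array, and the rise was 1.24-fold (log2 change 0.32 ± 0.05 SE, n = 3 per group; adjusted p = 0.00487). Its other probe set, at a lower level, gave 0.23 ± 0.08. Col3a1 passed with any 1 of the 6 arrays left out (highest adjusted p = 0.0265).

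Col1a2, for the alpha-2 chain of type I collagen, was at 8.48, 8.68 and 8.59 in control livers and at 8.85, 8.78 and 8.83 in injected livers. The groups did not overlap, and the control arrays spread more widely (SD 0.10 against 0.04). The rise was 1.18-fold (0.24 ± 0.06; adjusted p = 0.0365), and its other probe set gave 0.27 ± 0.08. This call held without control array 2 and was lost without any other array (adjusted p up to 0.112), and without moderation of the variance. Col1a1, for the partner chain that makes up the rest of the type I trimer, was at 5.56, 5.68 and 5.43 against 5.66, 5.74 and 5.77. Its groups overlapped, and its change of 0.17 ± 0.07 did not pass (adjusted p = 0.159); another probe set gave -0.03 ± 0.05.

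Type V collagen is a minor partner in type I fibres, and of its chain genes Col5a3 alone passed. The difference between the chains was not tested. Col5a3 was at 7.70, 7.98 and 7.68 in control livers and at 7.10, 7.29 and 7.48 in injected livers, a 1.41-fold fall (-0.49 ± 0.11; adjusted p = 0.0252). All injected arrays lay below all controls, with replicate 3 nearest to them. The second Col5a3 probe set, at a mean below 5, gave -0.0012 ± 0.06, and the mean of both probe sets changed by -0.25. The call was lost without control array 1 or 2 or injected array 2 (adjusted p up to 0.0821), and without moderation of the variance. Col5a1 (-0.10 ± 0.05; adjusted p = 0.190) and Col5a2 (-0.04 ± 0.07; adjusted p = 0.753) did not pass. Col5a2 lies next to Col3a1 on chromosome 1 among protein-coding genes in the RefSeq annotation of GRCm38.p6, and its interval (-0.20 to 0.12) ended below that of Col3a1 (0.20 to 0.43). The cartilage collagen genes Col2a1 (-0.22 ± 0.07), Col11a1 (0.20 ± 0.09) and Col11a2 (-0.14 ± 0.06) gave low signals and did not pass (adjusted p = 0.0714, 0.186 and 0.142); Col2a1 passed without injected array 1.

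**Figure D2:**
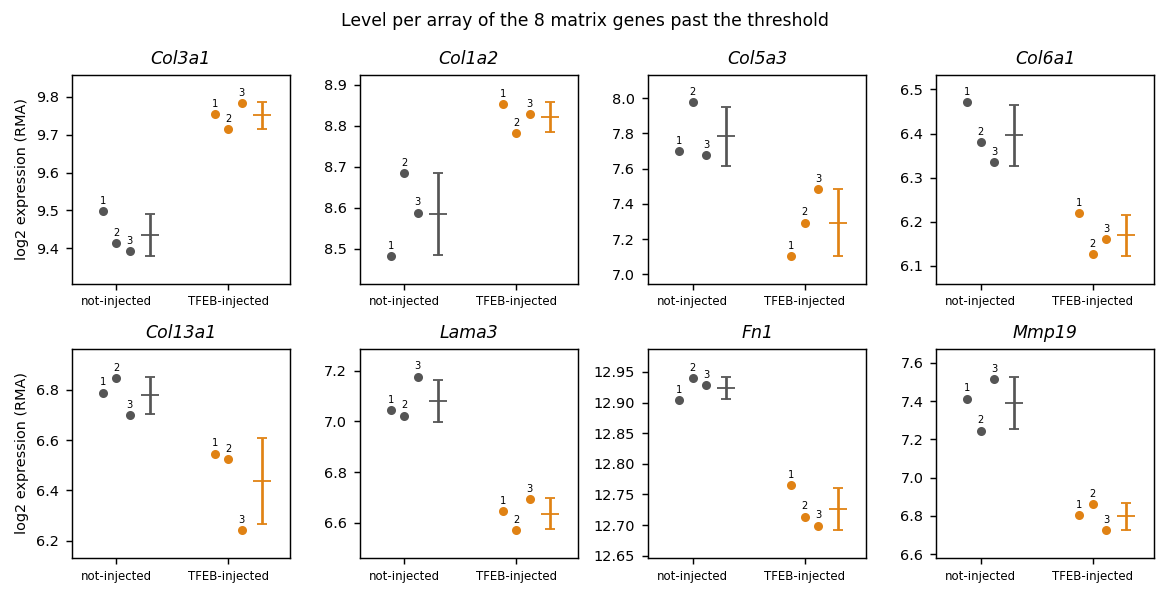
Points are log2 expression values per array, numbered by replicate, for the 8 matrix genes past the threshold; the bar beside each group is the mean ± SD of 3 arrays, and each panel has its own vertical scale, which does not start at 0. In all 8 panels the 2 groups do not overlap; Col3a1 and Col1a2 are higher in injected livers and the other 6 are lower.

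Promoter sequence is shown for the collagen genes that passed and have an entry, because TFEB is known to bind the letters CACGTG, best within the longer palindrome called the CLEAR motif. RefSeq windows of GRCm38.p6 were available for 51 of the 75 members, 58 windows in all, and the 250 bases before the start were searched on both strands. CACGTG was in 1 of the 58 windows (1.72%), that of Mmp7, beside 6.02% of all 32851 windows. The CLEAR motif, which contains it, was in 0 of 58, beside 0.24%. Neither was in the 5 windows of genes that passed, and Mmp19, Lama3 and Fn1, which also passed, had no window. CCAAT, a common promoter element chosen after the values were known, was in 31% of member windows and 33.8% of all, and TATAAA, chosen likewise, in 20.7% and 12.4%. A match is a description of letters and does not show binding. The 250 bases before the start are given for Col3a1 and Col1a2, which rose, and for Col5a3, Col6a1 and Col13a1, which fell, 5′ to 3′ on the gene's strand, with CCAAT and TATAAA in capitals.
Col3a1 (chr1:45311288-45311537, plus strand): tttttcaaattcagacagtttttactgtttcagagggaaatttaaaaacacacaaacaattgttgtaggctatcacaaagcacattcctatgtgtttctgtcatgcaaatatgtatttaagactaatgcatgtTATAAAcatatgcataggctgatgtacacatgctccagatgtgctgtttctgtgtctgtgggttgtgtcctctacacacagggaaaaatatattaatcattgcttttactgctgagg
Col1a2 (chr6:4505368-4505617, plus strand): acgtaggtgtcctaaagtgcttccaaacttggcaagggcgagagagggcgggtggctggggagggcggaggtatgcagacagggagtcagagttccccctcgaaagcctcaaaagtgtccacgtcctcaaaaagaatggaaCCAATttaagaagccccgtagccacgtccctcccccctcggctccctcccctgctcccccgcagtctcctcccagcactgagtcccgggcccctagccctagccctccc
Col5a3 (chr9:20815068-20815317, minus strand): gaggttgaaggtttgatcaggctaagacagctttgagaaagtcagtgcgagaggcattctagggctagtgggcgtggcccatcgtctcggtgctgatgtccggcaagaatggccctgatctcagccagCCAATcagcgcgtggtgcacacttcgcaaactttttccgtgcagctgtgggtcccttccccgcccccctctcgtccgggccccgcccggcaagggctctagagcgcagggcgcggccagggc
Col6a1 (chr10:76726045-76726294, minus strand): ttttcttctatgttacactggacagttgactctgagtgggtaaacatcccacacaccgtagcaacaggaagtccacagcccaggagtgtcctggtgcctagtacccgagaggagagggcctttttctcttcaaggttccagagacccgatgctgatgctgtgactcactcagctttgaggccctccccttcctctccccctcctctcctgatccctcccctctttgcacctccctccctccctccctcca
Col13a1 (chr10:61979109-61979358, minus strand): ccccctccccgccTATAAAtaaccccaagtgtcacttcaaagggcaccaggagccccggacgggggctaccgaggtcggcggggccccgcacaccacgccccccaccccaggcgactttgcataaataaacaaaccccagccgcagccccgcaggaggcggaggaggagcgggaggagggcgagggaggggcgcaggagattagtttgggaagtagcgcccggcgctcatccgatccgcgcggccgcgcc
Each of these elements was in the window of 1 gene that rose and 1 that fell. TATAAA began 117 bases before the start of Col3a1 and 237 bases before that of Col13a1. CCAAT began 109 bases before the start of Col1a2 and 122 bases before that of Col5a3. The Col6a1 window held neither.

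None of the 11 genes for basement membrane and network collagens passed the threshold, beside 17.9% of all genes, and their median change was -0.01. An unadjusted p under 0.05 (limma) was reached by 3 of the 11 and by 3894 of all 12393 genes. Col4a1 and Col4a2, for the chains of the type IV network found in all basement membranes, lie side by side on chromosome 8. Col4a1 was at 8.38, 8.40 and 8.36 in control livers and 8.41, 8.46 and 8.43 in injected livers. Col4a2 was at 8.13, 8.05 and 8.11 against 8.15, 8.06 and 8.07. The intervals were narrow, from -0.05 to 0.15 for Col4a1 and from -0.12 to 0.11 for Col4a2. Col4a3 (-0.10 ± 0.08), Col4a4 (0.06 ± 0.07), Col4a5 (0.07 ± 0.08) and Col4a6 (0.09 ± 0.06), for the chains of more restricted networks, did not pass either.

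Col18a1 and Col15a1, for the proteoglycan collagens at basement membranes that release endostatin-like fragments, pointed in opposite directions, and neither passed. Col18a1, which hepatocytes are known to make, was at 11.32, 11.41 and 11.32 against 11.48, 11.52 and 11.64 (0.19 ± 0.06; adjusted p = 0.0600). Its second probe set, also bright, gave -0.07 ± 0.07, so the direction depends on the probe set. Col15a1 was at 7.08, 6.85 and 6.73 against 6.67, 6.54 and 6.46 (-0.33 ± 0.10; adjusted p = 0.0534). Neither gene's groups overlapped. Col15a1 passed without control array 3 or injected array 1. It also passed with median centring, an intensity trend with a robust variance prior, array weights or the replicate number as a block. Col8a1, for a short-chain network collagen of vessels, changed by -0.23 ± 0.07 (adjusted p = 0.0672) and passed without injected array 3. Col7a1, of anchoring fibrils (-0.06 ± 0.06), and Col10a1, of growth plate cartilage (-0.01 ± 0.08), did not pass.

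Type VI collagen is built from 3 different chains, and the genes did not move together. Col6a1 was at 6.47, 6.38 and 6.34 in control livers and at 6.22, 6.13 and 6.16 in injected livers, a 1.17-fold fall (-0.23 ± 0.05; adjusted p = 0.0267). The groups did not overlap. Its call was lost without control array 1 or 2 or injected array 2 (adjusted p up to 0.110), and without moderation. Its neighbour on chromosome 10, Col6a2, was at 7.81, 7.997 and 7.70 against 7.84, 7.77 and 7.995, with overlapping groups (0.03 ± 0.09; adjusted p = 0.841). Col6a3 was at 7.32, 7.35 and 7.18 against 7.38, 7.45 and 7.41 (0.13 ± 0.06; adjusted p = 0.175). The intervals of Col6a1 (-0.35 to -0.10) and Col6a3 (-0.01 to 0.26) did not overlap; the difference between the chains was not tested.

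None of the 9 genes for fibril-associated collagens, which decorate the surface of fibres, passed, beside 17.9% of all genes. An unadjusted p under 0.05 (limma) was reached by 0 of the 9 and by 3894 of all 12393 genes. Their changes ran from -0.20 (Col19a1) to 0.09 (Col9a3). Col14a1, made by liver fibroblasts and stellate cells, was at 8.51, 8.59 and 8.51 in control livers and at 8.73, 8.63 and 8.35 in injected livers (0.04 ± 0.10; adjusted p = 0.834). Injected replicates 1 and 2 lay above all controls and replicate 3 below them. The membrane-spanning collagen gene Col13a1, whose product sits at cell junctions, fell 1.27-fold. It was at 6.79, 6.85 and 6.70 against 6.55, 6.52 and 6.24 (-0.34 ± 0.09; adjusted p = 0.0372), so all injected arrays were lower, with replicate 3 lowest. The call was lost without any 1 control array or injected array 2 (adjusted p up to 0.123), under cyclic loess normalization and without moderation. Col17a1 (0.08 ± 0.05), Col25a1 (-0.11 ± 0.06) and Col26a1 (-0.21 ± 0.07) did not pass.

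Of the 10 laminin genes, 1 fell and 9 did not pass (10% past the threshold, beside 17.9% of all genes). Of the 10 estimates, 9 were below 0, as were 6750 of all 12393, and the median was -0.15. Laminins are trimers of an alpha, a beta and a gamma chain. Lama3, for the alpha-3 chain of the epithelial laminin-332, was at 7.04, 7.02 and 7.18 in control livers and at 6.65, 6.57 and 6.69 in injected livers. The groups lay well apart, and the fall was 1.36-fold (-0.44 ± 0.06; adjusted p = 0.00260). It passed with any 1 array left out (highest adjusted p = 0.0164). Lamb3, for the beta-3 chain of the same trimer, was at 6.27, 6.66 and 6.14 against 5.93, 6.08 and 5.95, without overlap but with a wide control spread (SD 0.27). Its change of -0.37 ± 0.13 did not pass (adjusted p = 0.0907).

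Lama5, for the alpha-5 chain widespread in adult basement membranes, was at 8.10, 8.37 and 8.25 against 7.98, 7.98 and 8.02 (-0.25 ± 0.07; adjusted p = 0.0522). It passed without control array 1, and its other probe set gave -0.01 ± 0.07. Lama1, for the alpha chain of early embryonic laminin, changed by -0.18 ± 0.06 (adjusted p = 0.0684). Lamb2, for the chain that stands in for beta-1 in many adult basement membranes, was at 5.86, 5.71 and 6.10 against 5.56, 5.82 and 5.40, with overlapping groups and a wide interval (-0.60 to 0.01). The common chain genes Lamb1 (-0.06 ± 0.07) and Lamc1 (-0.13 ± 0.07) did not pass, nor did Lama2 (-0.04 ± 0.08), Lama4 (-0.02 ± 0.09) or Lamc3 (0.0035 ± 0.10).

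Fn1, which encodes fibronectin, was at 12.90, 12.94 and 12.93 in control livers and at 12.77, 12.71 and 12.70 in injected livers. Every injected array was lower and the spread was small (SD 0.02 and 0.03), so a 1.15-fold fall passed (-0.20 ± 0.04; adjusted p = 0.0207). Its other probe set fell too, by 0.43 ± 0.10. The lead call was lost without any 1 control array or injected array 2 (adjusted p up to 0.0882). None of the 8 defining hepatocyte markers measured, such as Alb and Apob, passed (0 of 8, median -0.01). An unadjusted p under 0.05 (limma) was reached by 1 of the 8, Cps1. It changed by -0.14 ± 0.05 (limma adjusted p = 0.0905), and every injected array was lower. Groups did not overlap for 4 of the 8 markers, 1 higher and 3 lower (50%, beside 37.1% of all genes).

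The small leucine-rich proteoglycans, which bind and space collagen fibres, had small changes, and none of the 3 passed. Dcn (decorin) was at 11.84, 11.86 and 11.82 against 11.77, 11.71 and 11.71 (-0.11 ± 0.04; adjusted p = 0.144). Its neighbour Lum (lumican) was at 8.30, 8.19 and 8.28 against 8.30, 8.32 and 8.28 (0.05 ± 0.05). Bgn (biglycan) was at 9.87, 9.97 and 9.88 against 9.80, 9.78 and 9.66 (-0.16 ± 0.06; adjusted p = 0.0964), and its other 2 probe sets gave -0.16 ± 0.05 and -0.13 ± 0.06. Dcn and Bgn had groups that did not overlap, and the groups of Lum did overlap.

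Sparc, for a collagen-binding protein of stromal cells, was at 9.35, 9.47 and 9.40 in control livers and at 9.64, 9.54 and 9.28 in injected livers (0.08 ± 0.09; adjusted p = 0.599). As for Col14a1, injected replicates 1 and 2 were above the controls and replicate 3 below. The second Sparc probe set gave 0.22 ± 0.06 (adjusted p = 0.0427 when every probe set was tested). Eln, for elastin, was at 6.64, 6.92 and 6.67 against 6.66, 6.82 and 6.80 (0.02 ± 0.09). Lox, for the oxidase that crosslinks collagen and elastin, was at 5.40, 5.47 and 5.42 against 5.39, 5.39 and 5.40 (-0.04 ± 0.04; interval -0.14 to 0.07).

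**Figure D3:**
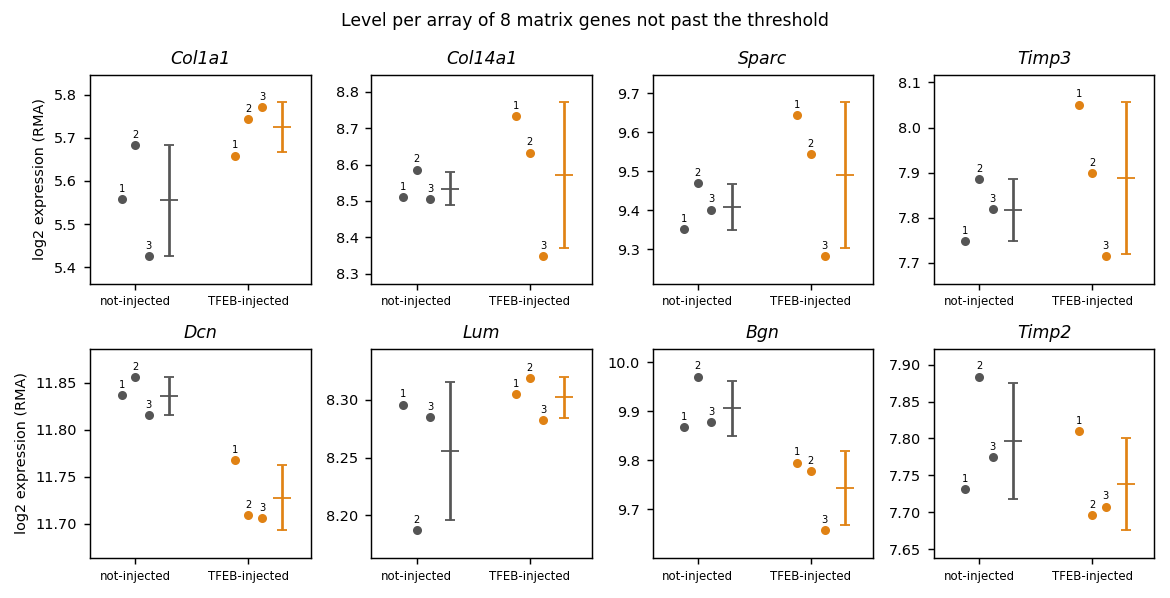
Points are log2 expression values per array, numbered by replicate, for 8 matrix genes not past the threshold; bars are the mean ± SD of 3 arrays, and vertical scales differ between panels and do not start at 0. For Col14a1, Sparc and Timp3, injected arrays 1 and 2 lie above all 3 controls and replicate 3 below all 3.

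Of the 18 matrix metalloproteinase genes, 1 fell and 17 did not pass (5.56% past the threshold, beside 17.9% of all genes), with a median of -0.01. Mmp19, for a protease that cleaves basement membrane proteins, was at 7.41, 7.25 and 7.52 in control livers and at 6.80, 6.86 and 6.72 in injected livers. The groups did not overlap, and the 1.51-fold fall was the largest among the members (-0.59 ± 0.08; adjusted p = 0.00216). A second probe set also fell (-0.29 ± 0.06). The call held with any 1 array left out (highest adjusted p = 0.0141).

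Mmp14, for the membrane-bound enzyme that activates pro-MMP2, was at 8.42, 8.39 and 8.42 against 8.51, 8.59 and 8.53. The groups did not overlap, but the change of 0.13 ± 0.04 did not pass (adjusted p = 0.0838); its other probe set gave 0.27 ± 0.09. Mmp2, for gelatinase A, was at 6.36, 6.24 and 6.34 against 6.54, 6.53 and 6.33 (0.15 ± 0.07; adjusted p = 0.190), with injected replicate 3 among the controls. It passed without that array, at 0.22, while its other probe set gave -0.02 ± 0.09. Mmp9, for gelatinase B, was at 5.84, 6.05 and 6.05 against 5.96, 6.14 and 6.15 (0.10 ± 0.08). Mmp13, for the main rodent collagenase, was near the floor of the scale at 3.93, 4.04 and 3.89 against 3.74, 3.73 and 3.86 (-0.18 ± 0.06; adjusted p = 0.0934), and passed without injected array 3. Mmp12, for the macrophage elastase, was as low, at 3.83, 3.97 and 4.10 against 3.92, 4.17 and 4.05 (0.08 ± 0.09).

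The gene cluster on chromosome 9 holds Mmp13, Mmp12, Mmp1b, Mmp3, Mmp1a, Mmp10 and Mmp8 as consecutive protein-coding genes, with Mmp20 and Mmp7 also next to each other. None of these 9 passed, and their changes ran from -0.18 (Mmp13) to 0.14 (Mmp20). The other membrane-type and secreted genes, Mmp11 (0.01 ± 0.05), Mmp16 (0.03 ± 0.07), Mmp17 (0.0037 ± 0.05), Mmp23 (-0.08 ± 0.04) and Mmp24 (-0.02 ± 0.07), did not pass.

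None of the 4 TIMP genes passed, beside 17.9% of all genes, and 0 had groups apart, beside 37.1%. An unadjusted p under 0.05 (limma) was reached by 0 of the 4 and by 3894 of all 12393 genes. Timp1, the inhibitor gene best known for its rise in injured and fibrotic liver, was at 5.48, 5.53 and 5.46 in control livers and at 5.28, 5.39 and 5.49 in injected livers (-0.10 ± 0.06; interval -0.25 to 0.04). Timp2, whose product also takes part in pro-MMP2 activation, was at 7.73, 7.88 and 7.78 against 7.81, 7.70 and 7.71 (-0.06 ± 0.06). Of its 5 other probe sets, all below 0, the one at -0.22 ± 0.06 passed when every probe set was tested (adjusted p = 0.0398). Timp3, for the inhibitor bound to the matrix, was at 7.75, 7.89 and 7.82 against 8.05, 7.90 and 7.72 (0.07 ± 0.09), again with injected replicate 3 below the controls. Timp4 was at 5.93, 5.88 and 5.93 against 5.80, 5.62 and 5.88 (-0.14 ± 0.07; adjusted p = 0.216), and its other probe set gave 0.25 ± 0.10.

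Genes that act on the matrix were read in 5 further lists, to be set beside the 17.9% of all genes past the threshold. Of 19 measured genes for collagen synthesis and crosslinking enzymes, 1 rose and 1 fell (10.5%; median 0.03). P4ha2, for a catalytic subunit of the prolyl hydroxylase that stabilises the collagen helix, was at 6.46, 6.34 and 6.24 against 7.35, 7.21 and 7.12, a 1.84-fold rise without overlap (0.88 ± 0.08; adjusted p = 4.60e-04). Crtap, for a component of the prolyl 3-hydroxylase complex, was at 7.92, 7.91 and 7.88 against 7.61, 7.61 and 7.60 (-0.30 ± 0.04; adjusted p = 0.00301). Both calls held without any 1 array; without injected array 3, 3 genes of this list rose. The related subunit gene P4ha1 (0.13; adjusted p = 0.518) and Serpinh1 (0.14; adjusted p = 0.162), for the collagen chaperone HSP47, did not pass.

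Of 18 other protease and protease inhibitor genes, 2 rose and 4 fell (33.3%; median -0.06). Reck, which encodes a membrane-anchored inhibitor of several metalloproteinases, was at 8.34, 8.43 and 8.39 in control livers and at 7.52, 7.41 and 6.74 in injected livers. All injected arrays were lower, with replicate 3 lowest, and the fall was 2.24-fold (-1.16 ± 0.18; adjusted p = 0.00497). It passed with any 1 array left out, at -0.92 without injected array 3. Ctss, for the lysosomal protease cathepsin S that can cut elastin, rose by 0.44 ± 0.05, and Serpinf2, for the plasmin inhibitor alpha-2-antiplasmin, fell by 0.28 ± 0.05. Adam10, for a membrane sheddase, rose by 0.20 ± 0.04, a call lost without any 1 control array or injected array 2 (adjusted p up to 0.0694). The count that fell was 2 without control array 1 or 3 or injected array 2, and the count that rose was 1 without any control array or injected array 2.

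Of 32 other matrix proteins and proteoglycans, 1 rose and 5 fell (18.8%; median -0.04). Smoc1, for a secreted SPARC-related protein, rose from 10.49, 10.43 and 10.42 to 10.88, 10.97 and 11.17 (0.56 ± 0.08; adjusted p = 0.00277), and passed without any 1 array. Sdc1, for a cell surface heparan sulfate proteoglycan, fell by 0.24 ± 0.06, and Prelp, for a leucine-rich matrix protein, by 0.34 ± 0.09. The other Prelp probe set gave -0.05 ± 0.08, and the Prelp call was lost with the mean of its probe sets or without the lead probe set. The other Sdc1 probe sets gave -0.23 ± 0.08, -0.25 ± 0.06 and -0.28 ± 0.06. When every probe set was tested, the latter 2 passed (limma adjusted p = 0.0394 and 0.0213) and the first did not (0.102). The Sdc1 call was lost when that first probe set took the place of the lead probe set. It was also lost without any 1 array but injected array 3 (adjusted p up to 0.105). That of Prelp was lost without any 1 control or injected array 2 (adjusted p up to 0.122). The count that fell was 0 without any 1 control array or injected array 2, 2 without injected array 1 and 3 without injected array 3.

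Of 18 collagen and laminin receptor genes 1 rose and 0 fell (5.56%; median 0.03). This was Cd44, for a hyaluronan receptor that also binds matrix proteins, at 6.55, 6.88 and 6.80 against 7.52, 7.42 and 7.35 (0.69 ± 0.09; adjusted p = 0.00236). The groups lay apart, and the call held without any 1 array, while the other probe set, of low signal, gave 0.07 ± 0.08. Itgb1, for the beta-1 integrin chain shared by most collagen and laminin receptors, gave 0.03 (adjusted p = 0.683).

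Of 26 genes for TGF-beta ligands, receptors and targets, the signalling pathway known for driving collagen production, 3 rose and 1 fell (15.4%; median 0.03). The list also holds Pdgfa, Pdgfb and Pdgfc, which encode PDGF ligands. Pdgfa was 1 of the 3 that rose (0.19 ± 0.05, limma adjusted p = 0.0459). Tgfbr2, for the ligand-binding receptor, was at 8.51, 8.59 and 8.67 against 8.97, 9.11 and 9.02 (0.44 ± 0.06; adjusted p = 0.00269). Its other 2 probe sets gave -0.25 ± 0.07 and -0.04 ± 0.06, and the mean of the 3 changed by 0.05. Ccn2, for connective tissue growth factor, a classical TGF-beta target, was at 8.48, 8.56 and 8.37 against 8.07, 7.80 and 7.78, a 1.5-fold fall without overlap (-0.59 ± 0.09; adjusted p = 0.00450). Id1, a target of the related BMP signals, rose by 0.46 ± 0.10, a call lost without control array 1 or 3 or injected array 2 (adjusted p up to 0.0726). Tgfb1, for the main ligand, gave -0.16 (adjusted p = 0.387). The count that rose was 1 without control array 1 or 3 or injected array 2, and 2 genes fell without injected array 1.

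**Figure D4:**
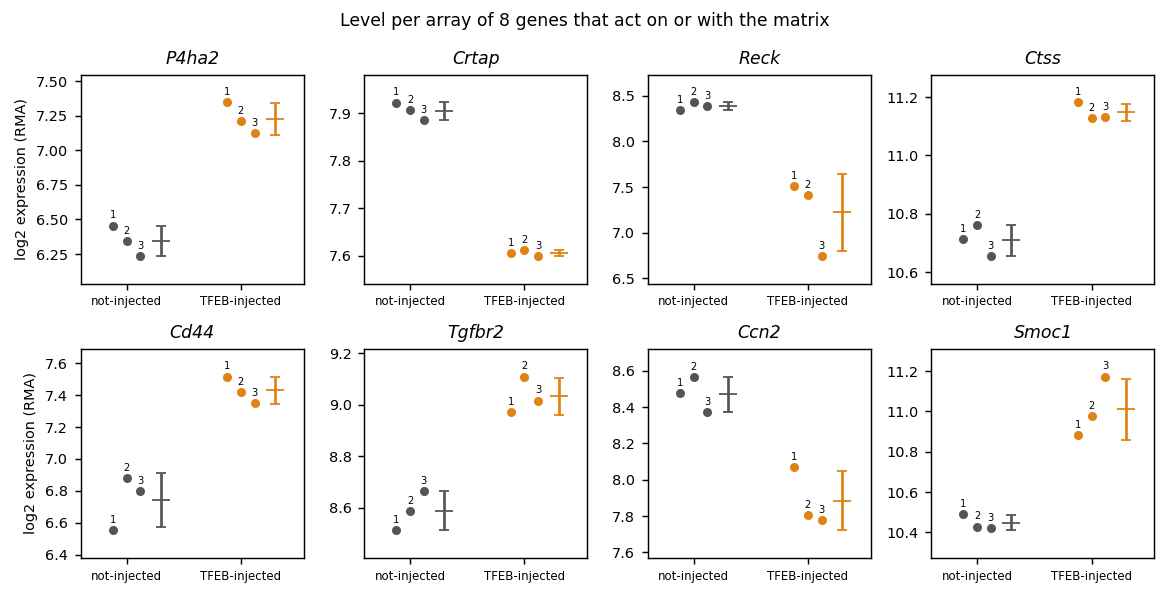
Points are log2 expression values per array, numbered by replicate, for 8 genes past the threshold that make, cut, bind or regulate matrix; bars are the mean ± SD of 3 arrays, and vertical scales differ between panels and do not start at 0. P4ha2, Ctss, Cd44, Tgfbr2 and Smoc1 are higher and Crtap, Reck and Ccn2 lower on all injected arrays, with Reck in injected replicate 3 at 6.74.

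Collagen genes are expressed by few cells of the liver, so the cell markers stand beside the changes. In such bulk RNA, fewer cells of a type and less RNA per cell cannot be told apart. Of 15 markers of stellate cells and myofibroblasts, 1 rose (Vim, 0.29 ± 0.05) and 2 fell (Lrat, -0.48 ± 0.10, for a retinol-storing enzyme, and Reln, -0.19 ± 0.04). That is 20%, beside 17.9% of all genes. The median of these markers was -0.10, and 13 of the 15 estimates were below 0, as were 6750 of all 12393. The other Vim probe sets gave 0.11 ± 0.06 and 0.23 ± 0.05. The log2 of the summed linear level of the 15 markers was 12.27 to 12.30 on control arrays and 12.14 to 12.25 on injected arrays. The Vim call was lost without injected array 2 (adjusted p = 0.0511), the Lrat call without that array or control array 2 or 3 (up to 0.0580), and the Reln call without that array or any control (up to 0.101). The count that rose was thus 0 without injected array 2. The count that fell was 0 without that array or control array 2 or 3, and 1 without control array 1. Of 14 macrophage and Kupffer cell markers 10 rose and 0 fell (71.4%, beside 17.9% of all genes), with a median of 0.47. The log2 of the summed level of these 14 was 13.07 to 13.11 on control arrays and 13.46 to 13.74 on injected arrays. Ctss and Cd44 are also expressed by macrophages. The part of either cell list in the matrix gene values was not tested.

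**Figure D5:**
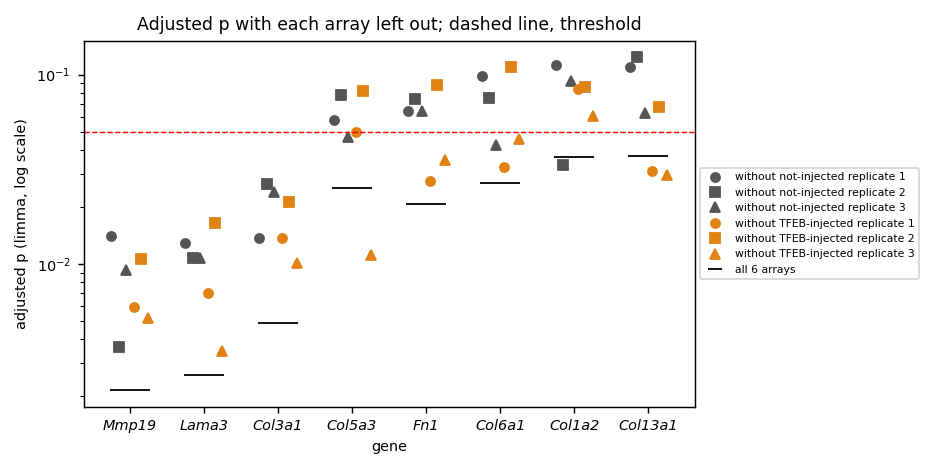
Adjusted p (limma, log axis) of the 8 matrix genes past the threshold with all 6 arrays (black bars) and with each array left out (grey, not-injected; orange, TFEB-injected; circle, square and triangle for replicates 1, 2 and 3); the dashed line is 0.05. All points of Mmp19, Lama3 and Col3a1 lie below the line, and the other 5 genes each have at least 3 points above it.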

How the data were processed

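Liver RNA of 6 mice had been hybridised to expression arrays, and the labels give 2 groups of 3. The authors deposited log2 levels, from 3.08 to 15.20, made with affy and RMA per the submitters' processing notes (versions: not given in the sources used here). Quantile normalization hides overall shifts, and RMA compresses changes at low levels. Depth has no meaning for arrays, and 3 per group limits the precision.

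Of 22690 probe sets, 64 are controls; 20393 had 1 gene symbol in the platform annotation, 691 several and 1606 none. Each of 12393 genes was read at the probe set with the highest mean over the 6 arrays. The groups were compared with limma 3.58.1 (R 4.3.3; lmFit, eBayes, 2-sided), adjusted by Benjamini-Hochberg over all genes, threshold 0.05, and the code was tested on simulated data. Intervals are 95% and not adjusted for many genes. P-values set the group difference against the spread between these mice, moderated by the spread seen over all genes.

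The members and lists were chosen with earlier results of these data known. Values are given for every member past the threshold, the member with the smallest p of each role without such a gene, and a fixed core; other members are given by their change. Of each related list, up to 2 genes per direction past the threshold with the smallest p were named. P4ha1, Serpinh1, Itgb1, Tgfb1 and Pdgfa were added after their values were seen. Figures: matplotlib 3.10.9, Python 3.11.15. Alternatives were other probe set rules, normalizations, filters, variance models, a replicate block, thresholds and each array left out.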

Additional observations from a re-analysis of the deposited data

How the results depend on the processing

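The counts of matrix genes that rose (2) and fell (6) depended on several choices. Array weights, whose fit stopped before converging, gave 11 and 27 (50.7% of members, 47.2% of all genes). When genes dimmer than the median gene were dropped, a higher level than the 6.92 used above, 19 members remained, of which 4 rose and 4 fell (42.1%, beside 36.5% of all genes). An adjusted p under 0.01 left 1 and 2, and one under 0.10 gave 4 and 15. Without moderation of the variance 2 rose and 3 fell. Col1a2, Col5a3, Col6a1 and Col13a1 were then lost, and Mmp14 passed. Leaving out 1 array gave 1 to 2 and 2 to 8. With the replicate number as a block, 1 rose and 6 fell. Col1a2, Col6a1 and Fn1 were then lost, and Col15a1 and Lamb3 passed. The labels do not say that the numbers pair the mice. Deviations of same-numbered arrays correlated at 0.01, -0.13 and -0.11, and not every array correlated best with its own number. With 3 arrays per group, centred within each group, these values cannot settle whether mice were paired. Mmp19, Lama3 and Col3a1 passed under every alternative that tested them; Mmp19 and Lama3 were not tested when dim genes were left out. None of the 8 genes past the threshold changed sign under any alternative.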

Other observations

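Markers of other liver cell types were measured beside the matrix genes. The share past the threshold was 17.9% of all genes. It was 16.7% of endothelial, 14.3% of cholangiocyte, 14.3% of neutrophil and 11.1% of T and NK cell markers. Of 12 endothelial markers 2 rose, Stab2 (1.42 ± 0.05 on the log2 scale) and Lyve1 (0.89 ± 0.07), for the hyaluronan receptors of sinusoidal cells, and 0 fell; the median was -0.02. Both calls held with any 1 array left out. Cd5l (0.63 ± 0.05) and Cd14 (0.75 ± 0.09) were the macrophage markers with the smallest p. Of 7 cholangiocyte markers, Sox9 fell (-0.33 ± 0.05), and 2 fell without injected array 1. Of 7 neutrophil markers, S100a8 rose (0.25 ± 0.07), a call lost without any 1 array (adjusted p up to 0.154). Gzma rose among 9 T and NK cell markers (0.36 ± 0.08), a call lost without control array 2 or 3 or injected array 2 (adjusted p up to 0.0700). None of 4 mesothelial markers (Gpm6a, -0.17 ± 0.09) or of 9 muscle and fat markers (Mylpf, -0.12 ± 0.06) passed, with limma adjusted p of 0.231 and 0.228 for the genes named.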
